A study of Xiphophorus maculatus with 24 samples.

Results

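The genes described here are the 168 most steadily expressed genes of platyfish skin that carry no ribosomal protein symbol. They were chosen on the counts themselves. Each count was divided by the total of its library, as counts per 1000000 reads (CPM), in 23 of the 24 skin libraries. Among the 8323 of 24209 genes with a mean of at least 20 CPM, the 200 with the smallest coefficient of variation (CV, the SD divided by the mean) were taken, and 32 genes with symbols beginning rpl or rps were left out, 2 of them on a single unchecked reading of the symbol. The low CV of these genes is thus a product of the choice and is described without a test.

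The libraries came from mature males of the inbred platyfish line *Xiphophorus maculatus* Jp 163 A. These received no treatment, were kept under 13 h of light and 11 h of darkness and were fed at fixed hours, and each library was prepared from the skin of 1 fish. Time is given as Zeitgeber time (Zt), in hours after lights on. The libraries fall into 2 collections, whose sample labels hold different dates without saying what the dates stand for. The first held 16 libraries, with 2 fish aged 24 months every 3 h from Zt 0.5 to Zt 21.5. The second held 8 libraries, with 2 fish aged 12 months every 6 h from Zt 0.5 to Zt 18.5. A library is named by its time and replicate letter, and where both collections share a time the letters are C and D in the first and A and B in the second. These ages are those of the sample labels, whereas the methods of the study give the younger age for all fish. Labels of the second collection also hold the number that the study gives as the inbred generation, and labels of the first do not. Collection, label date, labelled age and any difference in generation cannot be told apart. The library left out of the choice was Zt 9.5 A of the first collection, so that 15 libraries of the first and 8 of the second entered it.

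Genes whose transcripts hardly vary between tissues and conditions are often called housekeeping genes. They encode the machinery that every cell runs, such as transcription, splicing, translation, protein turnover and membrane traffic, and some serve as denominators in quantitative PCR. Skin is a mixture of epidermis, dermis, scales, pigment cells and blood. In whole skin, fewer cells of a type and less RNA per cell cannot be told apart.

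Total counts ranged from 25736825 to 36066368 reads on genes over the 24 libraries. Markers of skin were present, with 12 of 17 named epithelial markers and 7 of 7 dermal and scale markers at a median of at least 1 CPM. Summed marker levels differed between libraries. The summed level of the dermal and scale markers ranged from 1767 to 6483 CPM in the 15 libraries of the first collection and from 6684 to 10510 CPM in those of the second. The summed level of 5 genes listed as skeletal muscle markers ranged from 2152 to 12280 CPM and from 1750 to 3540 CPM, most of it from ACTA1. All marker lists were made by symbol pattern, so they can hold genes that do not mark the named tissue. No marker of the 5 lists for epithelium, dermis, pigment cells, muscle or blood was among the 168 genes. Some markers lay under the level limit of the choice and could not be members. Of all named genes over that limit, ribosomal proteins apart, only 1.80% were members, so this absence is only described. In each of the 168, the highest of the 23 libraries was less than 1.5 times the lowest, with ratios from 1.21 to 1.48 and a median of 1.33, against a median of 2.25 for all 8323 genes. The choice used the same 23 libraries, so small ratios follow from it.

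The steadiest named gene was rack1, which encodes a scaffold protein bound to the small ribosomal subunit. In RefSeq annotation of the assembly X_maculatus-5.0-male, where genes were matched by symbol, rack1 lies on chromosome 23 from 18628445 to 18631929. It measured 1545 CPM at the lowest, 1688 at the median and 1894 at the highest in the 15 libraries of the first collection, and 1646, 1723 and 1767 CPM in the 8 of the second. Its CV over the 23 libraries was 4.77% (mean 1682 CPM, SD 80.2, n = 23), and the ranges of both collections overlapped. At Zt 0.5 and 6.5 both fish of the second collection lay above both of the first, at Zt 12.5 both lay below, and at Zt 18.5 they overlapped.

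Next came IFT22, a part of the transport machinery of cilia, which measured 63.2 CPM at the lowest, 72.9 at the median and 81.0 at the highest in the first collection and 69.5, 73.1 and 78.0 CPM in the second (CV 5.69%). Then came trpc4apa, which encodes a substrate receptor of a cullin ubiquitin ligase, with 54.0, 60.5 and 65.9 CPM in the first collection and 54.9, 56.2 and 59.4 CPM in the second (CV 5.97%). The range of the second collection lay within that of the first for both genes. A further 3 of the 10 steadiest named genes encode RNA-binding proteins. They are the splicing regulator ptbp2a (CV 6.02%), named by its spotted gar ortholog, the zinc finger protein zc3h7bb (6.15%) and tial1 (6.44%), a relative of the stress granule protein TIA1. For tial1, the lowest, median and highest levels were 142, 151 and 171 CPM in the first collection and 136, 149 and 156 CPM in the second. The others were the Golgi matrix protein gene blzf1 (CV 6.49%), aktip (6.69%), whose product belongs to a motor adaptor complex of vesicles, the mitochondrial carrier gene slc25a24 (6.76%) and tfip11 (6.80%), which acts in the release of spliceosomes after splicing.

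**Figure D1:**
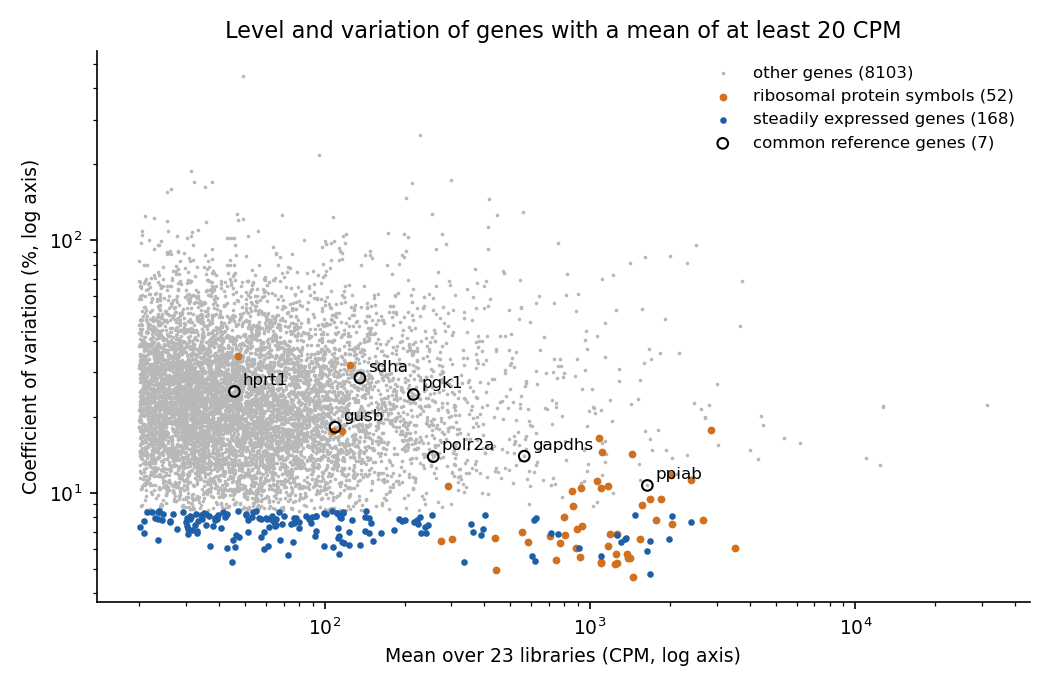
Mean level over 23 libraries (CPM, log axis) and CV (%, log axis) of each gene with a mean of at least 20 CPM. Steadily expressed genes are blue, ribosomal protein symbols orange, common reference genes open circles and other genes grey. The blue points form the lower edge of the cloud from 20.2 to 2406 CPM, and no open circle lies among them.

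The CVs of the 168 genes ranged from 4.77% to 8.48% with a median of 7.66%, against a median of 21.9% over all 8323 genes. The choice used these values. Their mean levels ranged from 20.2 to 2406 CPM with a median of 71.6 CPM, against 48.4 CPM for all 8323, and 57 genes lay under 50 CPM. CPM are shares of reads and take no account of transcript length, so they do not rank the genes by transcript number. Counting error alone would have given CVs of 0.368% to 4.02%, and at the median gene it made up 8.16% of the squared CV. The last genes taken were med4, a Mediator subunit gene (8.46%), nckap5l (8.48%) and an unnamed gene, ENSXMAG00000023271 (8.46%). The first genes not taken were pex19, for import into peroxisome membranes (8.48%), and the unnamed ENSXMAG00000008052 (8.49%) and ENSXMAG00000014224 (8.52%). The border thus fell in a dense stretch of the ranking, and genes on either side of it hardly differed.

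Of 11 common reference genes matched by symbol, ribosomal proteins apart, 7 had a mean of at least 20 CPM and none was a member. Because 14254 of the 24209 genes had no name, other reference genes may be present without a match. Only 1.80% of named genes at this level, ribosomal proteins apart, were members, so their absence is only described. The peptidylprolyl isomerase gene ppiab ranked 612 by CV (10.7%), the RNA polymerase II gene polr2a 1537 (13.9%), the glycolytic gapdhs 1551 (13.97%), the lysosomal gusb 2982 (18.2%), pgk1 4872 (24.5%), hprt1 5027 (25.2%) and the respiratory chain gene sdha 5731 (28.5%). In sdha, the 23 libraries ran from 82.4 to 225 CPM with a median of 128, where rack1 stayed between 1545 and 1894. The TATA-binding protein gene tbp and the ubiquitin-conjugating gene ube2a had means of 0.606 and 10.6 CPM, under the limit of 20, as did the tubulin genes tuba1a (13.6 CPM) and tuba1c (1.23 CPM). Ribosomal protein genes made up the other part of the 200 steadiest. Of 52 such symbols with a mean of at least 20 CPM, 32 (61.5%) were among the 200, and rpl13 ranked 6 (5.26%).

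A name could be given to 87 of the 168 genes, 80 by their own symbol and 7 by the symbol of their spotted gar ortholog. Names came only from the study's tables of cyclic genes and of genes with a single gar counterpart. Genes in neither table had no name, so the lists below are drawn from a selected part of the genes. Of the 4846 named genes with a mean of at least 20 CPM, ribosomal proteins apart, 87 (1.80%) were members, and shares of the functional lists below are read beside this value as descriptions. The lists were made by symbol pattern, and a gene went to the first list it matched. They can thus hold genes without the named function and miss genes that have it. Genes that act on RNA or on transcription appeared in several lists. The list of RNA polymerase II, Mediator and general transcription held 6 members of 75 genes (8.00%). The RNA-binding list held 5 of 84 (5.95%), splicing 4 of 92 (4.35%), chromatin 6 of 161 (3.73%), and 3' end processing and decay 1 of 46 (2.17%).

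In general transcription, 3 members encode subunits of TFIID, the complex that sets RNA polymerase II on promoters. The gene taf12 measured 29.6 CPM at the lowest, 34.0 at the median and 37.3 at the highest in the first collection and 30.1, 33.8 and 35.4 CPM in the second. The largest subunit, taf1, measured 135, 153 and 165 CPM in the first collection and 123, 142 and 163 CPM in the second, and taf6 measured 31.7, 37.2 and 40.97 CPM and 30.9, 35.6 and 39.6 CPM. Ranges of both collections overlapped in all 3. Not every TFIID gene was steady, since the 8 named TAF genes with a mean of at least 20 CPM had CVs from 6.91% to 22.6% with a median of 14.5%. The other members of the list were the elongation factor genes supt5h and rtf1 and the Mediator gene med4. The last was 1 of 12 named Mediator genes with a mean of at least 20 CPM.

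Chromatin members comprised both named genes of the KDM5 family with a mean of at least 20 CPM. Enzymes of this family remove methyl groups from lysine 4 of histone H3. Unnamed genes may hold further genes of the family. KDM5A measured 70.2 CPM at the lowest, 80.6 at the median and 88.8 at the highest in the first collection and 74.0, 79.5 and 92.6 CPM in the second. Its relative kdm5c measured 101, 115 and 134 CPM and 99.8, 113 and 116 CPM. Their extremes in the second fell in the same fish, Zt 0.5 A, which was the highest for KDM5A and the lowest for kdm5c. The others were the nucleosome remodeller gene ino80, the acetyltransferase gene kat5b, setd5 and sap30bp. A further member outside the lists, mrgbp, encodes a partner of the KAT5 enzyme in the NuA4 acetyltransferase complex.

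Splicing members were ddx46 and ddx42, helicases of the U2 particle, u2surp, a U2-associated protein gene, and ik, named by its gar ortholog. The helicase gene ddx46 measured 185 CPM at the lowest, 223 at the median and 244 at the highest in the first collection and 218, 230 and 250 CPM in the second. For ik the values were 57.4, 67.4 and 78.7 CPM and 60.8, 63.0 and 68.3 CPM, so that the range of the second collection lay within that of the first. Grouped after their values were seen, tfip11, smndc1 and cactin are further members that act with the spliceosome. So are wtap and cbll1 for the complex that writes N6-methyladenosine on mRNA. The decay list was represented by cnot3b, a subunit gene of the CCR4-NOT deadenylase (55.6, 69.2 and 79.1 CPM in the first collection and 62.2, 64.7 and 68.5 CPM in the second).

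The list named translation factors gave a single member of 44 genes, tpt1, the translationally controlled tumor protein gene, which entered by its symbol. It measured 1293 CPM at the lowest, 1424 at the median and 1634 at the highest in the first collection and 1458, 1597 and 1660 CPM in the second. With rack1 and hdlbpa, which encodes the mRNA-binding protein vigilin (524, 593 and 690 CPM in the first collection and 633, 670 and 694 CPM in the second), it was 1 of only 3 named members over 500 CPM. The median of the second collection lay above that of the first in tpt1 and hdlbpa, and the ranges of both overlapped.

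The list of ubiquitin and related conjugation held the most members, 10 of 208 (4.81%). Named first by CV were UBAP2L (6.95%), an RNA-binding protein with a ubiquitin-associated domain, and klhl3 (7.19%), a substrate adaptor of cullin 3 ligases. UBAP2L measured 132 CPM at the lowest, 142 at the median and 166 at the highest in the first collection and 135, 147 and 156 CPM in the second. The adaptor gene klhl3 measured 25.7, 28.6 and 31.5 CPM and 23.5, 26.7 and 29.6 CPM. A second KLHL adaptor, klhl20, and kctd10 also serve cullin 3, elocb encodes an elongin of cullin 2 and 5 ligases, and dcun1d1 promotes the attachment of NEDD8 to cullins. The list also held the ligase genes trip12, arih1 and rnf40. Among the least abundant named members by read share, dcun1d1 measured 18.8, 22.1 and 23.4 CPM in the first collection and 17.7, 20.9 and 24.2 CPM in the second, and cbll1 17.8, 21.3 and 23.9 and 18.8, 19.99 and 21.4 CPM. The proteasome, which degrades ubiquitin-tagged proteins, had 0 members of 36, and its genes had a median CV of 29.3%.

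Membrane traffic held 6 members of 234 (2.56%). Both steadiest were genes of the endoplasmic reticulum membrane, vapal, a VAP protein that tethers the reticulum to other membranes, and arl6ip1, which shapes its tubules. The first measured 29.0 CPM at the lowest, 31.5 at the median and 38.1 at the highest in the first collection and 29.2, 31.1 and 33.9 CPM in the second, and the second 198, 227 and 251 and 195, 210 and 238 CPM. Sorting nexins, which bind endosomal lipids, gave 3 members (snx14, snx21 and snx6) of 17 named genes with a mean of at least 20 CPM. The endocytic adaptor gene eps15 was the last. The cytoskeleton list held 3 of 123 (2.44%), among them CAPZA2 and capzb, which encode the alpha and beta subunits of the protein that caps the growing ends of actin filaments. They were 2 of 3 named capping protein subunit genes with a mean of at least 20 CPM, and the third had a CV of 17.9%. CAPZA2 measured 290, 352 and 411 CPM in the first collection and 335, 370 and 391 CPM in the second, and capzb 339, 407 and 453 CPM and 381, 398 and 453 CPM. For both genes the lowest library was Zt 21.5 A.

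Kinases and their adaptors gave 5 members of 156 (3.21%), and phosphatases 2 of 83 (2.41%). The first list held stk3 (26.1 CPM on average, CV 7.72%), which encodes a serine and threonine kinase, and aktip. The phosphatase genes were ppp4r3b, a subunit of protein phosphatase 4 (31.4, 33.7 and 37.9 CPM in the first collection and 27.6, 30.9 and 35.7 CPM in the second), and ppme1, which demethylates protein phosphatase 2A (32.6, 37.8 and 45.3 CPM and 33.7, 38.0 and 42.9 CPM).

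In 8 further lists no gene was a member. They were aminoacyl-tRNA synthetases (0 of 20, median CV 29.8%), the mitochondrial ribosome (0 of 23, 20.4%), oxidative phosphorylation (0 of 54, 19.1%), chaperones (0 of 82, 25.7%), translocation and glycosylation in the endoplasmic reticulum (0 of 53, 25.6%), lysosome and autophagy (0 of 59, 20.2%), nuclear transport (0 of 47, 25.4%) and small GTPases (0 of 108, 19.1%). Over all named genes the median CV was 21.5%, so that 4 of these lists lay above it and 4 below. None of the 81 unnamed members could enter a list, and 1 of them, ENSXMAG00000001160 (CV 8.20%), has an unchecked reading as the ATP synthase gene atp5fa1, which would belong to oxidative phosphorylation. Mitochondrial functions were represented outside the lists by vdac1, the pore of the outer membrane, uqcc1, an assembly factor of respiratory complex III, and slc25a24.

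The 81 members without a name included 16 of the 19 members over 500 CPM, with means from 604 to 2406 CPM. They could not be screened for ribosomal protein symbols, so some may belong to the group that the rule left out.

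**Figure D2:**
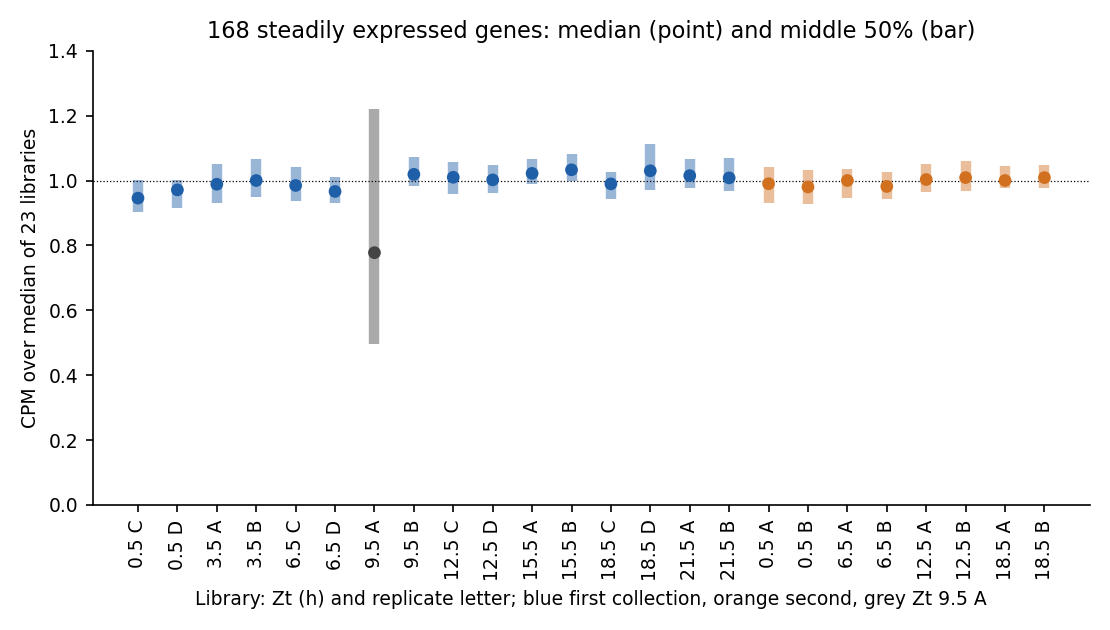
Level of the 168 genes in each library relative to the median of 23 libraries for the same gene (ratio, linear axis). Points are medians over genes and bars hold the middle 50% of genes, blue for the first collection, orange for the second and grey for the library left out of the choice. Medians lie between 0.946 and 1.03 in the 23 libraries and at 0.778 in Zt 9.5 A.

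Among the 23 libraries, the median gene of the 168 lay between 0.946 and 1.03 times its own median level. The lowest values belonged to Zt 0.5 C (0.946) and 6.5 D (0.966), and the highest to Zt 15.5 B (1.03) and 18.5 D (1.03). In the second collection the values ran from 0.980 to 1.01. Departures were not spread evenly. The library Zt 18.5 D was the highest of the 23 for 32 of the 168 genes, and 14 genes there were more than 20% from their median level, against 0 to 2 genes in each of the other 22 libraries. That library also held the lowest dermal and scale marker sum of the 23 (1767 CPM, against 5176 in its partner fish C). Its blood marker sum was likewise the lowest of the 23 (237.5 CPM, against 374.7 in C). Its muscle marker sum was 8187 CPM (4916 in C). Muscle sums were higher in Zt 0.5 D (12280 CPM) and 6.5 D (10010 CPM), where 2 genes and 1 gene were more than 20% from their median level. The part of these differences in the levels of the 168 genes was not tested. When the choice was repeated without Zt 18.5 D, 142 of the 168 were chosen again, the fewest for any single library left out.

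**Figure D3:**
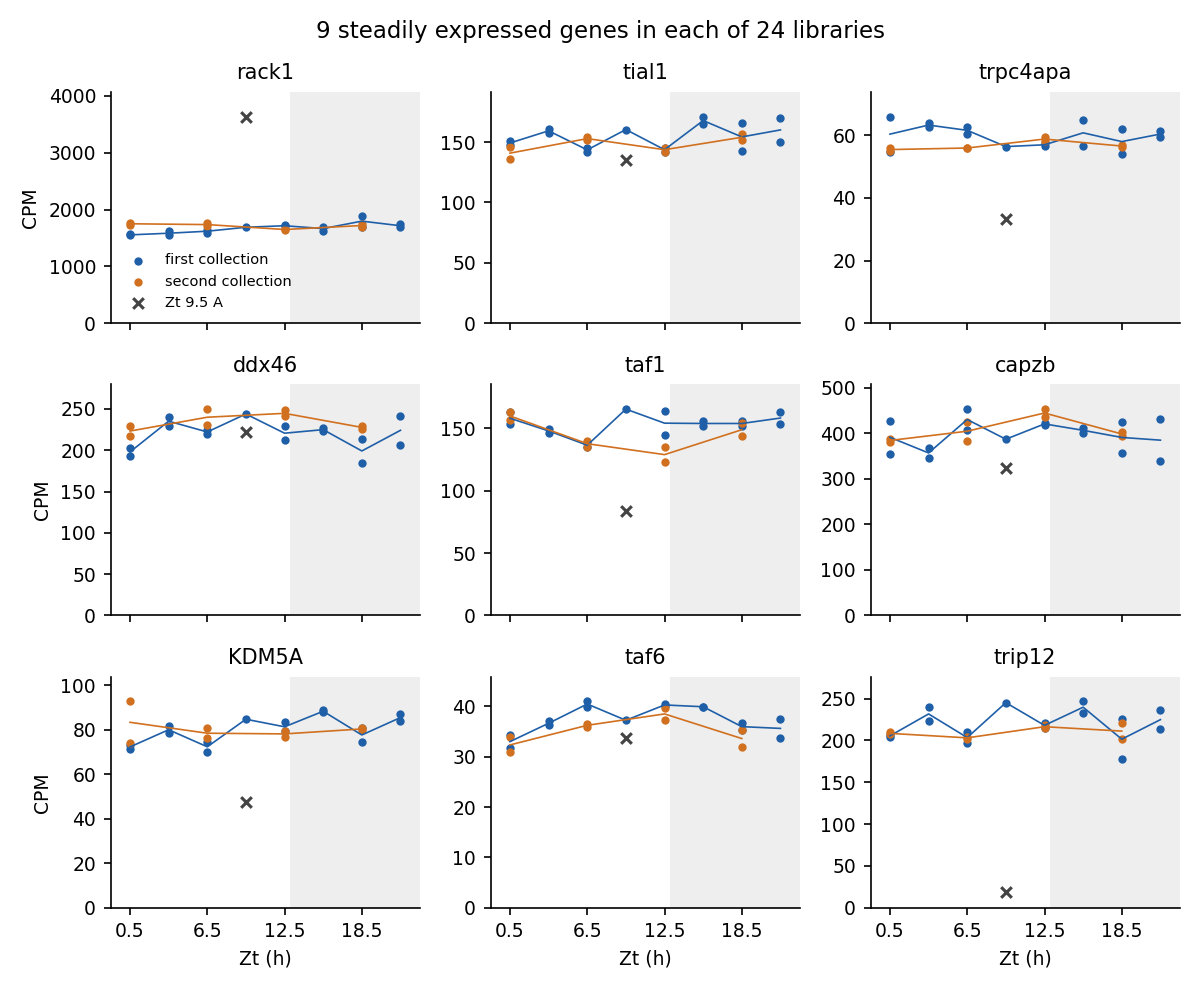
Levels of 9 of the genes (CPM, linear axes from 0) against Zt, one point for each fish, blue for the first collection and orange for the second, with lines through the means of each time and grey shading for darkness. Crosses mark Zt 9.5 A, which lies far from the other 23 libraries for rack1 (3634 CPM) and trip12 (19.2 CPM). For tial1 it lies just under the lowest of them (135 against 136 CPM).

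A cosine of 24 h was fitted to each gene over the 23 libraries, with collection as a term. Over all 19013 genes tested, 26.6% were called (edgeR quasi-likelihood F test, Benjamini-Hochberg adjusted p under 0.05), and 2 of the 168 genes were. Because a small CV leaves little room for a rhythm, nothing is read from this count. The 2 were taf6 and the unnamed ENSXMAG00000010197, each with a fitted amplitude of 0.12 on the log2 scale, that is a swing of 0.12 above and below its mean. For taf6 the fitted peak fell at Zt 9.49. At Zt 0.5 the fish of the first collection measured 31.7 and 34.3 CPM and those of the second 30.9 and 33.8. Levels of 40.97 and 39.96 CPM followed at Zt 6.5 in the first collection, where the second had 35.9 and 36.6. Values for Zt 12.5 were 40.1 and 40.5 CPM against 37.4 and 39.6, and by Zt 18.5 they were 36.7 and 35.2 CPM against 31.9 and 35.3. At these 4 times all fish of Zt 0.5 and 18.5 lay below all fish of Zt 6.5 and 12.5 of the same collection. Since taf6 was picked by its fit to the same fish, this order is a description and no separate support. The first collection alone was sampled at Zt 3.5 (36.3 and 37.0 CPM), 9.5 (37.2 in fish B), 15.5 (39.92 and 39.93) and 21.5 (37.5 and 33.8). The call of taf6 (adjusted p = 0.035) was lost in 9 of 31 other settings, among them each collection alone (adjusted p = 0.36 in the first and 0.087 in the second), time as a factor (0.14) and all 24 libraries (0.056). Without Zt 18.5 D, 8 of the 168 were called (32.0% of all genes tested), without Zt 9.5 B 5 (35.8%), and without Zt 12.5 B 0 (21.8%).

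The contrast between collections used the 8 fish of each at Zt 0.5, 6.5, 12.5 and 18.5. Of 18935 genes tested, 45.6% were called by edgeR, 23.4% higher and 22.2% lower in the second. Of the 168 genes, 20 were called, 18 higher and 2 lower in the second. With library totals in place of TMM factors 15 were, 11 higher and 4 lower, beside 45.6% of all genes tested. The choice bounded these differences as well, so nothing is read from the counts. Sizes were small, with a median of 0.06 and a highest of 0.23 on the log2 scale regardless of sign, against a median of 0.26 over the 8323 genes.

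The named members with the largest differences were rbm45, u2surp and tpt1. The RNA-binding protein gene rbm45 measured 66.3 CPM at the lowest, 76.8 at the median and 79.6 at the highest in the 15 libraries of the first collection and 75.1, 82.1 and 86.1 CPM in the second, a log2 difference of 0.23 (SE 0.06) in the 8 and 8 fish. The splicing gene u2surp measured 120, 138 and 160 CPM and 142, 150 and 156 CPM (log2 difference 0.23, SE 0.05), but with all 23 libraries and time as a cosine the difference was 0.13 and its call was lost (edgeR adjusted p = 0.055). For tpt1, with the levels given above, the difference was 0.22 (SE 0.06). The only named member called lower was supt5h, which encodes a regulator of elongating RNA polymerase II, with 135, 150 and 168 CPM in the first collection and 123, 139 and 145 CPM in the second (log2 difference -0.15, SE 0.06). Its call (edgeR adjusted p = 0.043) was lost without any one of 9 libraries, which were Zt 6.5 D, 12.5 C, 18.5 D and 0.5 D of the first collection and Zt 12.5 A, 12.5 B, 18.5 A, 18.5 B and 6.5 B of the second (adjusted p up to 0.079). Ranges over all libraries overlapped in all 4 genes. In 3 of the 168 the 8 fish of the second collection all lay above the 8 of the first, beside 4.89% of the 8323 genes. In 0 of the 168 they all lay below, beside 528 of the 8323 genes. The choice bounded these counts too, so nothing is read from them.

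**Figure D4:**
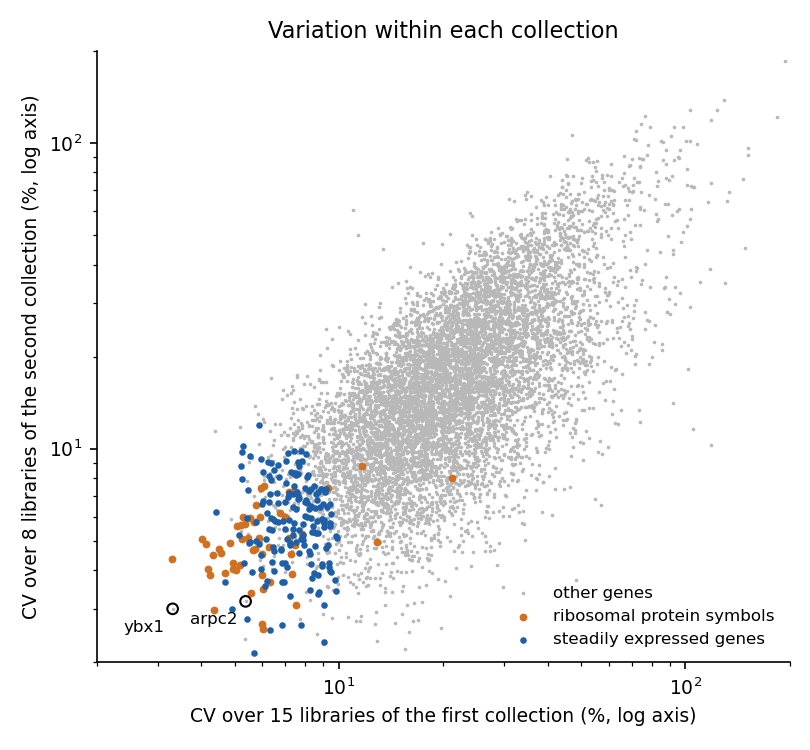
CV over the 15 libraries of the first collection (%, log axis) against CV over the 8 libraries of the second collection (%, log axis) for genes with a mean of at least 20 CPM. Steadily expressed genes (blue) have medians of 7.49% and 5.79%, ribosomal protein symbols are orange, and the open circles mark ybx1 (3.31% and 2.99%) and arpc2 (5.38% and 3.17%).

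Within a collection the 168 genes had a median CV of 7.49% in the first collection and 5.79% in the second, against 20.1% and 15.4% over all 8323 genes. To read steadiness in fish that had not been used to choose, the same rule was applied to each collection alone. The 158 genes chosen on the first collection had a median CV of 6.38% in the fish of the second, against 15.4% for the 8360 genes over the level limit, and 135 (85.4%) were among the 25% with the lowest CV there. The 179 genes chosen on the second collection had a median CV of 11.2% in the fish of the first, against 19.98% for 8038 genes, and 126 (70.4%) were among the lowest 25%. Genes steady in one set of fish therefore varied less than the median gene in the other set, in 156 of 158 and 170 of 179 cases.

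The lists themselves overlapped less. They shared 29 genes, 18.4% of the first and 16.2% of the second, and 20 of these were among the 168. Shared members included rack1, IFT22, trpc4apa and vdac1, but most of the shared genes had no name, some of them over 500 CPM. The pore gene vdac1 measured 332 CPM at the lowest, 384 at the median and 415 at the highest in the first collection and 413, 422 and 441 CPM in the second, with a CV of 2.14% among the 8 fish of the second collection, the lowest of all 8323 genes there. The only named genes chosen in both collections but no members were ybx1, for a major mRNA-packaging protein, and arpc2, for a subunit of the actin-branching Arp2/3 complex. In ybx1 the CV was 3.31% in the first collection and 2.99% in the second around means of 1945 and 2444 CPM, which gave 11.9% over both. In arpc2 it was 5.38% and 3.17% around 425.7 and 525.8 CPM. Both were named after their values were seen.

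The library that the choice did not use, Zt 9.5 A, measured the same genes in a further fish of the line. It had the smallest total of the 24 libraries (25736825), and the median gene of all 8323 stood at -0.64 on the log2 scale against the median of the other 23 libraries, with 0.5 CPM added to both. For the 168 the median was -0.36. With TMM factors, the median moved to 0.04 for all genes and to 0.34 for the 168, so its sign depended on the scaling. Relative to all genes the 168 lay 0.29 higher with library totals and 0.30 higher with TMM factors. Without the 16 unnamed members over 500 CPM these differences were 0.17 and 0.17.

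The steadily expressed genes spread widely in this library. Of the 168, 63 (37.5%) were more than 2-fold from their median of 23 libraries, as were 39.9% of all 8323 genes. More than 2-fold below were 42 of the 168 (35.7% of all genes), and more than 2-fold above were 21 (4.19% of all genes). With TMM factors the balance turned, with 19 below (17.05% of all genes) and 42 above (15.5% of all genes). Of the 21 above with library totals, 13 were unnamed members over 500 CPM, and the other 152 members gave 8 (5.26%). Only 25 of the 168 lay within the range of their other 23 libraries, as did 40.2% of all genes. A range made narrow by the choice is easier to leave, so these shares are not comparable.

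**Figure D5:**
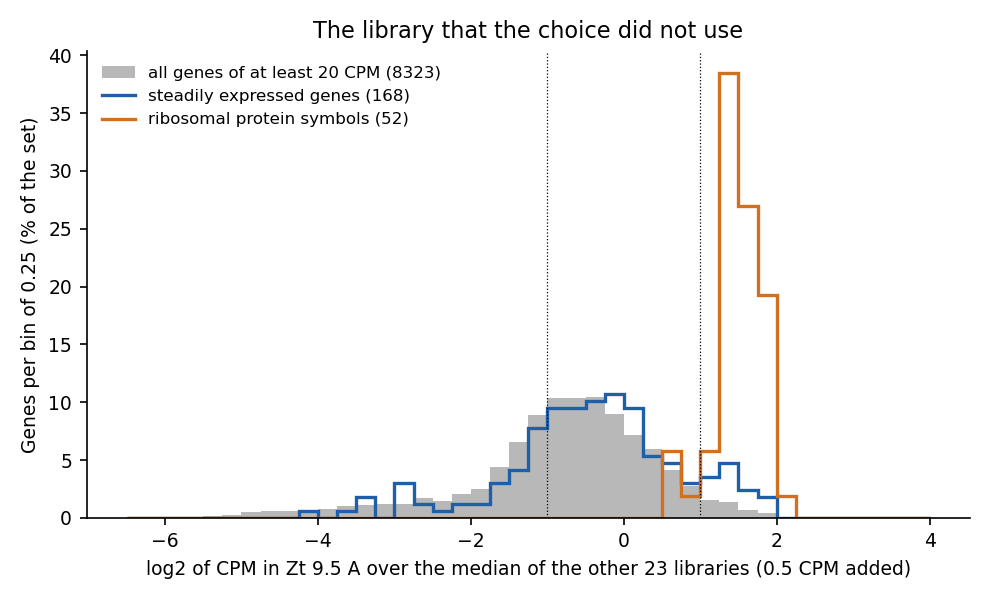
Distribution of the log2 ratio of CPM in Zt 9.5 A to the median of the other 23 libraries, in bins of 0.25 (x axis), as a percentage of each set (y axis). Grey marks all 8323 genes, blue the 168 steadily expressed genes (median -0.36) and orange the 52 ribosomal protein symbols (median 1.48), and dotted lines mark 2-fold differences.

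Named genes far below included trip12, ino80 and si:ch211-79l17.1. The ubiquitin ligase gene trip12, on chromosome 18 from 17319343 to 17344928, had 19.2 CPM there, where the other 15 libraries of the first collection ran from 178 to 247 CPM with a median of 221 and those of the second from 202 to 220 CPM with a median of 209 (log2 ratio -3.46). The remodeller gene ino80, on chromosome 15 from 14998027 to 15039765, had 2.64 CPM, against 26.5, 30.6 and 33.6 CPM at the lowest, median and highest in the first collection and 30.4, 32.8 and 36.02 CPM in the second (-3.34). The lowest ratio of a named member was that of si:ch211-79l17.1, with 2.37 CPM against 39.9, 48.3 and 53.8 and 44.0, 46.02 and 50.03 CPM (-4.05). All 3 lay far under every other library.

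At the other end, mrgbp, the partner of KAT5, had 86.8 CPM, against 34.3, 38.9 and 45.3 CPM in the first collection and 35.96, 36.6 and 43.0 CPM in the second (log2 ratio 1.19). For IFT22 the value was 160 CPM (1.13) and for rack1 3634 CPM (1.10), so that 2 of the 3 steadiest named genes lay more than 2-fold above their median. Of the 16 unnamed members over 500 CPM, 15 lay above, with a median of 1.39. All 32 ribosomal protein genes left out by the rule lay above as well, with a median of 1.48. Together the 168 genes took 6.54% of the reads in this library and 3.58% to 4.07% in each of the other 23. The 16 unnamed members over 500 CPM took 4.599% here and 1.86% to 2.27% elsewhere, and the other 152 took 1.94% and 1.66% to 1.81%. With library totals, ddx46 (222 CPM, log2 ratio -0.03), tfip11 (42.2 CPM, -0.12) and tial1 (135 CPM, -0.16) were close to their level in the other fish. Even so, tial1 lay just under its lowest value in the other 23 libraries (136 CPM). The TMM factor of this library was 0.632, so TMM scaling would place all 3 higher. Being 1 library, it gives no estimate of spread between fish.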

How the data were processed

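RNA-Seq was performed on skin of single male *X. maculatus* with TruSeq libraries sequenced as paired ends. The authors mapped reads with TopHat2 to genome version 5.0, counted them on Ensembl gene models with featureCounts and deposited raw counts per gene, neither normalized nor pooled. Program versions, strand and treatment of multi-mapping reads were not given in the sources used here. CPM, means, SDs and CVs were computed from these counts with library totals (Python 3.11.15, pandas 2.3.3). The contrast between collections (16 libraries, time as a term) and the cosine fit (23 libraries, collection as a term) used edgeR 4.0.16 (R 4.3.3) with TMM factors, filterByExpr and the quasi-likelihood test. In simulated counts for the contrast, 18 of 50 genes changed by 0.5 log2 units were recovered and 50 of 50 changed by 1, with 10 other calls among 18968 genes. Recovery of changes under 0.5 log2 units, where all differences of the 168 genes lay (up to 0.23 regardless of sign), was not tested. Recovery at the spread of the 168 genes was not tested either. Members such as rbm45 (0.23) and supt5h (-0.15) were called at smaller differences. The recovered counts are therefore not read as recovery for the 168 genes. DESeq2 1.42.0 was an alternative tool. The members and lists were chosen with earlier results of these data known. Named were the 10 steadiest members, the 3 with the highest and the 3 with the lowest level, the 2 steadiest of each list, those with the largest differences by collection, time or in the library not used, and those at the border of the choice. Names were read from scanned supplementary tables, which pair identifiers with symbols. These were the study's table of genes cyclic in any organ and its table of genes with a single gar counterpart. Genes in neither could not be named. They were kept where the symbol occurred in RefSeq, matched the gar ortholog or was read a second time. Names taken from the gar ortholog also had to occur in RefSeq. The RefSeq check allowed a final a or b to differ and did not link symbols to identifiers. Another 4 members had a single unchecked reading and count as unnamed. No result on gene length is given, since RefSeq gave a position for only 68 of the 168. No sequence was used here. Some named members are not reported here. Where nothing says that fish came from separate stocks, p-values measure only the spread between these fish.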

Additional observations from a re-analysis of the deposited data

Results flagged for a closer look

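In the groups of 8 libraries used for the contrast between collections, 7 values of named members lay far from the other 7 by Dixon's criterion, among 90 groups examined, where chance flags about 1 in 20. In the library Zt 18.5 D, tial1 measured 166 CPM (others 142 to 151), tfip11 54.1 CPM (42.9 to 47.5), tpt1 1570 CPM (1293 to 1424) and rbm45 78.1 CPM (66.3 to 71.6), each the highest of its 8. The carrier gene slc25a24 measured 136 CPM in Zt 12.5 C (others 102 to 117). In Zt 0.5 A, KDM5A measured 92.6 CPM (74.0 to 81.0) and kdm5c 99.8 CPM (109 to 116). The causes were not tested.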

How the results depend on the processing

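Of the 168 genes, 74 were chosen again with all 24 libraries, 74 on the 15 libraries of the first collection, 40 on the 8 of the second and 111 with a mean of at least 50 CPM. With TMM factors 114 and with DESeq2 size factors 116 were, and without single libraries 142 to 161. In the library not used, the median log2 ratio was 0.34 with TMM factors, -0.40 against the other fish of that time, -0.29 when members were chosen without Zt 18.5 D and -0.47 without the 16 unnamed members over 500 CPM, both settings added after seeing the data. Members called between collections numbered 33 with DESeq2 (49.7% of all genes tested) and 8 without a filter on low counts (38.9%). Without single libraries they numbered 8 to 28, beside 40.4% to 48.1% of all genes tested. They were fewest without Zt 0.5 B (8, beside 40.9%) or 6.5 B (8, beside 42.4%). They numbered 9 to 13 without Zt 6.5 A, 0.5 A, 18.5 A, 12.5 B or 18.5 B or Zt 6.5 C, 6.5 D, 0.5 C or 0.5 D (40.4% to 44.4% of all genes). Genes called for time of day numbered 2999 with all 24 libraries, 725 on the first collection alone and 3724 to 6803 without single libraries (5063 as reported), and genes called between collections 7723 to 9177. Members called for time of day numbered 11 with DESeq2 (33.5% of all genes tested), 6 with library totals (29.3%) and 1 without a filter (20.7%). On the second collection alone they numbered 7 (37.9%). They numbered 0 with all 24 libraries (15.8%), on the first collection alone (3.91%) or with time as a factor (21.9%). Without single libraries they numbered 0 to 8, beside 19.6% to 35.8% of all genes tested. There was 1 without Zt 0.5 A, 0.5 B or 18.5 A or Zt 6.5 D or 0.5 C (19.8% to 23.2%). With the replicate letter as a replicate block, 4720 genes (24.3% of all genes tested) and 3 members were called. The first-lettered libraries of each time deviated together (correlation over 0.1) in 6 of 6 pairs of times in the second collection. In the first collection they did so in 6 of 21 pairs. There the first letter was A at some times and C at others, so many of those pairs did not share a letter. In the second collection the letters do not always match those of the sample labels, so whether they pair fish there is not known. The causes were not tested. Names were read from scanned tables, and 1 fish in 24 was outside the choice.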
